A study of Rattus norvegicus with 36 samples.

Results

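Phospholamban, encoded by Pln, and 6 further genes of calcium storage in muscle were followed in rat thyroid tissue after injection of radioiodine. The set comprises Sln, Atp2a1, Atp2a2, Ryr1, Casq1 and Casq2 beside Pln, and it was chosen by symbol, with Pln selected on its high level in the group injected with 4700 kBq. Of the 7 genes, 6 were matched to at least 1 probe through the accession of the probe, among 15154 genes with a symbol in the whole series. They are read by 8 probes (1 each for Pln, Sln, Atp2a1 and Casq2, and a pair each for Atp2a2 and Casq1). Ryr1, the calcium release channel of skeletal muscle, was matched to no probe and was not analysed here. All 8 probes lay well above background on all 36 arrays.

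The animals were Sprague Dawley rats, adult males, of which 32 received 131I intravenously and 4 were mock-treated controls (0 kBq). The 8 activities, each given to 4 rats, were 9, 88, 170 and 260 kBq in the lower range and 340, 760, 1300 and 4700 kBq in the upper. Whole thyroid tissue was taken 24 h later, and total RNA of each rat was hybridized to its own 1-colour array. The irradiated groups were injected in ascending order of activity, so that activity and place in the order cannot be told apart among them. The controls were mock-treated last, after the 4700 kBq group. Thyroid tissue could include parathyroid, and the RNA is that of all cells in the excised piece: fewer cells of a type and less RNA per cell cannot be told apart.

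In striated muscle, calcium is released from the sarcoplasmic reticulum through ryanodine receptors to start contraction and is pumped back by the SERCA calcium pumps to end it. Atp2a1 encodes the pump of fast skeletal fibres, and Atp2a2 encodes a pump with a form of heart and slow fibres and a form found in most cells, thyrocytes included. Phospholamban and sarcolipin (Sln) are small membrane proteins that inhibit these pumps, and the calsequestrins Casq1 (skeletal, mainly fast fibres) and Casq2 (heart and slow fibres) hold calcium inside the store. Phospholamban is best known from heart, slow skeletal and smooth muscle. In non-muscle tissue the store is the endoplasmic reticulum.

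The sequence before the start site is shown for Pln and for 3 members whose levels correlated with each other between rats, Atp2a1, Casq1 and Casq2. The 250 bases before the start site, from RefSeq on GRCr8, are printed 5′ to 3′ on the gene's strand. Capitals mark matches, on either strand, to the E-box CANNTG (bound by muscle regulators of the MyoD family, among others) and to the MEF2 motif, which is 10 bases long. No TATAAA and no CArG box, the motif of serum response factor, was found in these 4 windows.
Pln (chr20:33172244-33172493, plus strand): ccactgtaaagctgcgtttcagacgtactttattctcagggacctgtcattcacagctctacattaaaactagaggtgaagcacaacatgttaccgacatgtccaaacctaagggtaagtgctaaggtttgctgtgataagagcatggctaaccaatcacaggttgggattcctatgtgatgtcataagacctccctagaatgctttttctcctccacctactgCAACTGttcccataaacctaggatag
Atp2a1 (chr1:190475411-190475660, minus strand): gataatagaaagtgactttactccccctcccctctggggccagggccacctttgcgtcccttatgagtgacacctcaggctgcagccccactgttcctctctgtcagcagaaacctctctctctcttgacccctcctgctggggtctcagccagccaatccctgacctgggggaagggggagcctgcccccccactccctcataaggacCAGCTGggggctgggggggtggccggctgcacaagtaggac
Casq1 (chr13:87212711-87212960, minus strand): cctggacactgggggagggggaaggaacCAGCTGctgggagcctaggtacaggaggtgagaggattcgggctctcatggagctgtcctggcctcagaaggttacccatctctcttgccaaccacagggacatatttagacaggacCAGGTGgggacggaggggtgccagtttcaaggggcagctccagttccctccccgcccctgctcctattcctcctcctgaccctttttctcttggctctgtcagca
Casq2 (chr2:192214306-192214555, plus strand): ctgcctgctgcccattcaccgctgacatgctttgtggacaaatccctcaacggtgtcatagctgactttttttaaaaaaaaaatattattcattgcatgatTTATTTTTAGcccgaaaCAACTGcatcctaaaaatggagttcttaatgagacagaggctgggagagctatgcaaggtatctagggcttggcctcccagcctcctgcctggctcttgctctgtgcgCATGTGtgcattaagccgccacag
The windows of Pln and Atp2a1 held 1 E-box each, and those of Casq1 and Casq2 held 2. Among 33469 promoter windows of the same length, 65.5% held at least 1 E-box and 30.8% at least 2. The MEF2 motif was found in the Casq2 window, from 149 to 140 bases before the start, and in 2.96% of all windows. TATAAA was found in 12.9% of all windows, and 501 of them held the CArG box. A match describes letters, and whether a factor binds there was not measured.

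Levels are given as the log2 intensity of a probe minus the 75th percentile of its array, so that 0 is a bright probe of that array and a step of 1 is a doubling. Levels of different probes cannot be set against each other. The tissue carried thyroid and muscle transcripts in varying amounts. Thyroglobulin (Tg) ranged from -4.51 to 7.48 over the 36 rats, and the mean of 11 fast skeletal muscle markers ranged from -3.79 to 7.41. The rat with the lowest fast muscle mean was rat 3 of the 760 kBq group. The share of the 30367 probes well above background was between 62.7% and 90.8% per array.

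Pln stood higher in every rat of the 4700 kBq group than in any other rat of the series. The 4 rats read 0.97, 0.91, 0.19 and 1.01, with a mean of 0.77 ± 0.39 (SD, n = 4). The controls read -1.41, -1.98, -1.28 and -1.29, with a mean of -1.49 ± 0.33 (SD, n = 4). The lowest rat at 4700 kBq (0.19) lay above the highest of the 32 other rats (-0.03), which belonged to the 1300 kBq group.

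The difference at 4700 kBq was a log2 ratio of 2.26 (SE 0.39), a 4.80-fold higher level. Because Pln was selected on this contrast, the value is a description and carries no test. Over all probes, 0.715% had all 4 rats of that group above all 4 controls, and 0% met the call rule (adjusted p under 0.01, with at least a 1.5-fold change). Of the 30367 probes, 43 had a higher log2 ratio there than Pln. Leaving out each of the 8 rats in turn gave log2 ratios from 2.10 to 2.46. Both groups shared 2 slides, within which Pln differed by 1.88 (2 rats against 2) and by 2.39 (1 rat against 1).

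Marker lists of other tissues also had ratios away from 0 between these groups, and most overlapped. The mean of 4 erythroid markers lay between -4.47 and -2.01 at 4700 kBq and between -6.14 and -5.06 in the controls, without overlap. Of the 4, 1 had all 4 rats above all controls, as 0.715% of all probes did. The list mean is weighted towards Slc4a1, with the largest log2 ratio of the 4 (3.82), against 1.79 for Alas2, 1.10 for Epb42 and 0.64 for Rhag. The median log2 ratio was 3.05 for 3 parathyroid markers (6.42 for Pth), -2.68 for 3 squamous and -2.28 for 4 cartilage markers, and the list means of all 3 tissues overlapped between the groups. The mean of 9 slow muscle markers ranged from -3.41 to 2.83 at 4700 kBq and from 0.80 to 3.57 in the controls, and that of 4 endothelial markers from -1.47 to -1.05 and from -1.91 to -1.07. In all, 2 of the 4 erythroid, 7 of the 9 slow muscle and 4 of the 4 endothelial markers were well above background on all arrays. The part of these cell types in the Pln level was not tested. With the mean of the fast and slow muscle lists as a covariate the log2 ratio of Pln was 2.23.

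**Figure D1:**
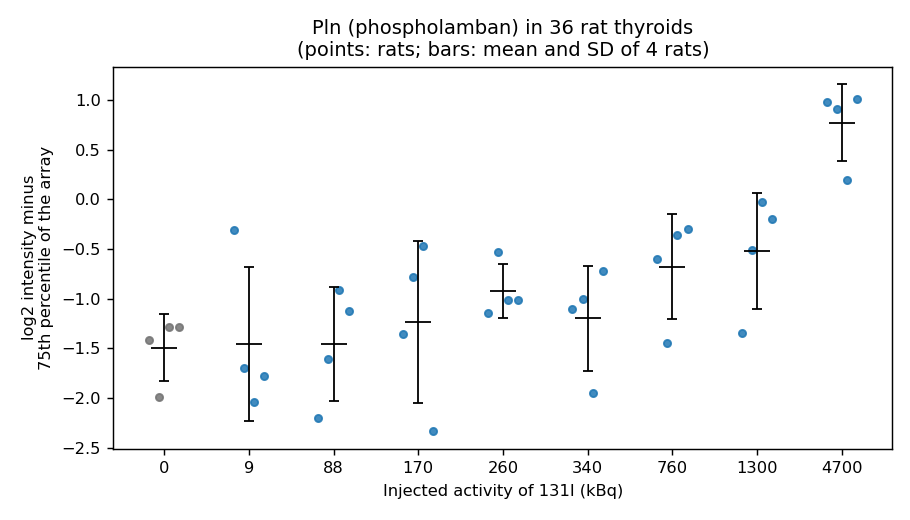
Level of Pln (log2 intensity minus the 75th percentile of the array, vertical axis) by injected activity in kBq (horizontal axis). Points are rats, and bars give the mean and SD of the 4 rats of a group. The 4 rats at 4700 kBq sit between 0.19 and 1.01, above the other 32 rats, of which the highest is at -0.03.

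The rats of the 7 lower activities played no part in the choice of Pln and could be tested, although against the same 4 controls. Those controls did enter the choice, so the ratios of Pln to them are not free of it. At 9 kBq the rats read -0.31, -1.70, -2.03 and -1.77 (mean -1.45). At 88 kBq they read -2.20, -1.61, -0.91 and -1.12 (mean -1.46), and at 170 kBq -1.35, -0.78, -0.47 and -2.33 (mean -1.23). In these 3 groups, rats lay both above and below the whole range of the controls.

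At 260 kBq the rats read -1.14, -0.53, -1.02 and -1.01 (mean -0.93), all above the highest control. At 340 kBq they read -1.11, -1.01, -1.95 and -0.73 (mean -1.20), with 1 rat within the range of the controls. At 760 kBq they read -0.60, -1.45, -0.36 and -0.30 (mean -0.68), and at 1300 kBq -1.34, -0.51, -0.03 and -0.20 (mean -0.52). In each of the last 2 groups, 3 rats lay above all controls and 1 within their range.

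The log2 ratio of Pln to the controls was 0.04 at 9 kBq, 0.03 at 88 kBq, 0.26 at 170 kBq, 0.57 at 260 kBq, 0.29 at 340 kBq, 0.81 at 760 kBq and 0.97 at 1300 kBq, each with an SE of 0.39. In limma's fit none passed, with adjusted p of 0.69 or more and unadjusted p of 0.048 at 760 kBq and 0.020 at 1300 kBq. In the exact permutation test, 4 rats against 4 cannot go below p = 0.0286 (two-sided), which was reached at 260 kBq, where 0.823% of all probes had all 4 rats above all controls. The same exact test gave p = 0.114 at 760 kBq and 0.0857 at 1300 kBq. In each of the 7 comparisons 0% of the 30367 probes were called, and between 341 and 4152 probes had an unadjusted p under 0.05.

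In these data the 75th percentile left the bulk of probes shifted in some groups, with a median log2 ratio over all probes of 0.31 at 340 kBq and 0.22 at 1300 kBq, which quantile normalization reduced to -0.02 and 0.04. Relative to that median, Pln was at 0.54 at 260 kBq, -0.01 at 340 kBq, 0.73 at 760 kBq, 0.75 at 1300 kBq and 2.17 at 4700 kBq. Quantile normalization gave 0.57, 0.27, 0.81, 0.97 and 2.24 for the same 5 groups.

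A slope of Pln on log10 activity over the 28 rats from 9 to 1300 kBq was added after these values had been seen. It was 0.44 (SE 0.16) per 10-fold activity in limma's fit, with an unadjusted p of 0.012 and an adjusted p of 0.82. Here too 0% of the probes were called, and 1747 had an unadjusted p under 0.05. The slope was between 0.39 and 0.63 over 45 alternatives. The slopes of the other member probes were -1.43 (SE 1.23) for Sln, -0.05 (SE 0.54) for Atp2a1, 0.15 (SE 0.32) for Atp2a2, 0.24 (SE 0.66) for Casq1 and 0.18 (SE 0.51) for Casq2.

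The other inhibitor of the pumps, sarcolipin, varied most of all members between rats of a group. Its pooled SD within groups was 4.24 against 0.56 for Pln and a median of 0.67 over all probes. Sln ranged from -5.30 to 7.03, and 24 of the 36 rats read above 0. At 760 kBq it read 5.79, 6.45, -5.30 and -4.78, so that a single group held rats near both ends.

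At 4700 kBq Sln read -3.02, -3.21, 2.82 and -2.01, and in the controls -1.23, 3.22, 6.66 and 2.70. The groups overlapped, and the log2 ratio was -4.19 (SE 2.88), opposite in sign to that of Pln. Within the 2 shared slides the difference was -4.27 and -1.78. At the 7 lower activities the log2 ratio of Sln lay between -2.39 at 88 kBq and 2.35 at 9 kBq, each within 1 SE of 0, with adjusted p of 0.70 or more in limma's fit.

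Atp2a1, the fast fibre pump, was even between most rats. In the controls it read 6.63, 6.59, 7.16 and 6.76, and at 4700 kBq 6.70, 4.96, 7.39 and 6.56. The groups overlapped, with a log2 ratio of -0.38 (SE 1.18), and the difference was 0.02 and 0.07 within the shared slides. Rat 3 at 760 kBq read -2.22 while the other 3 rats of its group read 6.78 to 6.93.

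That rat also had the lowest fast muscle mean, and its Pln was -0.36, in the upper part of its group. It set the ratios of the fast fibre genes in its group. The log2 ratio at 760 kBq was -2.19 (SE 1.18) for Atp2a1 and -2.41 (SE 1.51) for Casq1, and 0.083 and 0.098 without that rat. Neither was called with or without it.

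Atp2a2, the pump of heart, slow fibres and other cells, was read by 2 probes, of transcripts NM_001110139 and NM_001110823, whose isoforms were not assigned here. The probe with the higher mean read 2.61, 0.96, 1.61 and 2.99 at 4700 kBq and 2.87, 3.36, 4.40 and 1.76 in the controls, a log2 ratio of -1.05 (SE 0.78). The second probe read 2.51, 3.22, 0.12 and 3.02 against 2.50, 1.91, 1.38 and 2.56, a log2 ratio of 0.13 (SE 0.75). The groups overlapped for both probes.

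Casq1, the calsequestrin of skeletal muscle, read 6.38, 2.81, 7.42 and 6.06 at 4700 kBq and 6.29, 6.19, 6.63 and 5.18 in the controls. Casq2, that of heart and slow fibres, read -1.80, -4.76, -1.64 and -2.15 against -1.02, -0.62, 2.09 and -2.88. The log2 ratio was -0.41 (SE 1.51) for Casq1, -0.23 (SE 1.74) for its second probe and -1.98 (SE 1.26) for Casq2. Both genes overlapped between the groups.

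At 4700 kBq, 1 of the 6 members, Pln, had a positive log2 ratio at its main probe, the probe with the highest mean, and 5 had a negative one. With the mean of the muscle markers as a covariate, Atp2a1 and Casq1 turned to 0.68 and 1.03, and without rat 2 at 4700 kBq to 0.10 and 0.55. Pln was above all controls in 4 of 4 rats, and none of the other 5 main probes had all 4 rats below all controls, as 0.553% of all probes did. The gap between the change of Pln and that of each other main probe was 6.45 for Sln, 4.24 for Casq2, 3.32 for Atp2a2, 2.67 for Casq1 and 2.65 for Atp2a1 on the log2 scale. These gaps come from the contrast that chose Pln and are a description.

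**Figure D2:**
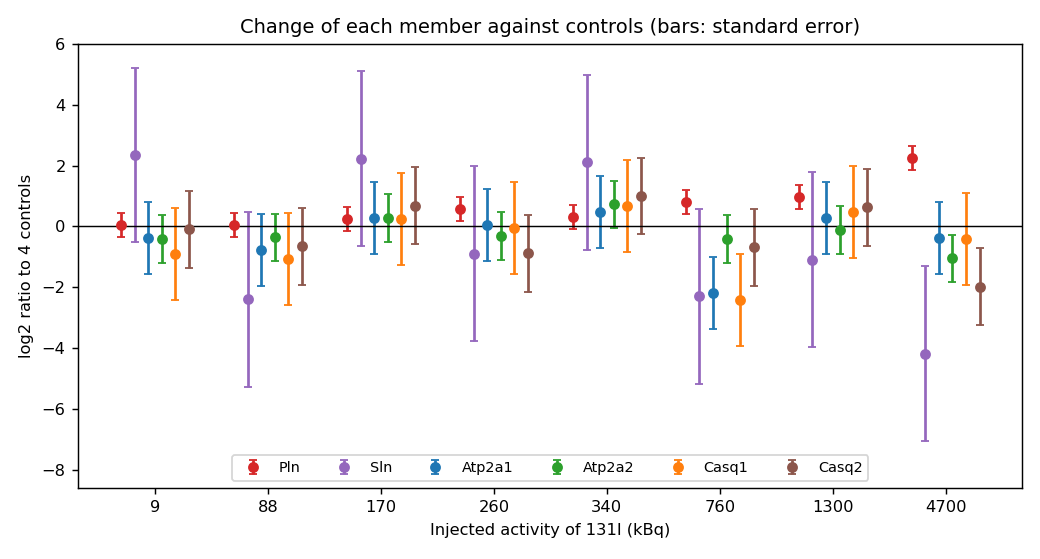
Log2 ratio of each member's main probe to the 4 controls (vertical axis) by injected activity in kBq (horizontal axis), with bars of 1 standard error. Pln reaches 2.26 at 4700 kBq, where the other 5 members are between -4.19 and -0.38.

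In the 7 groups that played no part in the choice, none of the 42 comparisons of the 6 main probes was called, and adjusted p was 0.64 or more in limma's fit. The controls did enter the choice, and a low Pln in them would raise every ratio and gap of Pln here. The difference between the change of Pln and the change of each other member was tested per rat in 35 exact permutation tests (two-sided). None reached the smallest p possible, 0.0286, and the lowest exact p was 0.0857, for Pln against Atp2a1 at 760 kBq. After quantile normalization, the scaling of the authors' matrix, 2 of the 35 did reach 0.0286 (exact), both for Pln against Atp2a1. Their gaps were 0.63 at 260 kBq and 1.04 at 1300 kBq, and the authors' matrix gave the same 2 with gaps of 0.62 and 1.02. Exact p-values were not adjusted for the 35 tests. At 1300 kBq the gap was between 0.35 for Casq2 and 2.07 for Sln, with exact p from 0.26 to 0.74.

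**Figure D3:**
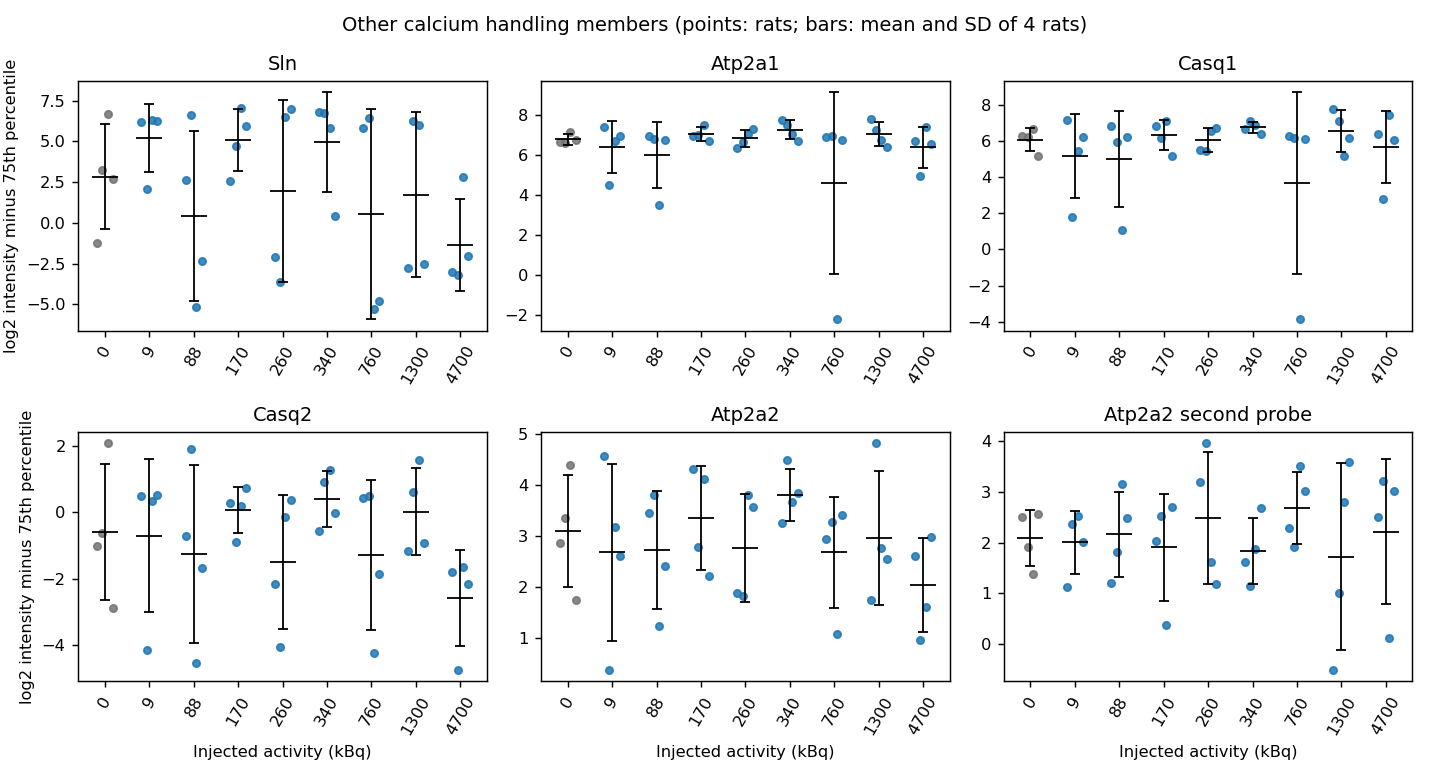
Levels (log2 intensity minus the 75th percentile of the array, vertical axes) of Sln, Atp2a1, Casq1, Casq2 and both Atp2a2 probes by injected activity in kBq (horizontal axes). Points are rats, and bars give the mean and SD of 4 rats. Rat 3 at 760 kBq reads -2.22 for Atp2a1 and -3.85 for Casq1, and Sln spreads from -5.30 to 7.03.

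Whether Pln moves with the other members was examined between rats of the same group, where activity plays no part. The mean of each group was subtracted, and 28 pairs of member probes were correlated over the 36 rats. For Pln and the other members r was weak. It was -0.25 with Sln (Spearman's rho -0.32, permutation p = 0.16 and 0.087), -0.17 with Atp2a1 (rho -0.19, permutation p = 0.38 and 0.31), -0.17 with Casq1 (rho -0.21, permutation p = 0.40 and 0.26) and -0.22 with Casq2 (rho -0.29, permutation p = 0.25 and 0.12). Permutations were made within groups and were two-sided.

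With Atp2a2, r was 0.15 (rho 0.04, permutation p = 0.49 and 0.83) at its main probe and 0.29 (rho 0.39, permutation p = 0.13 and 0.041) at its second. Without rat 1 at 9 kBq the first of these became -0.023. Without the 2 rats farthest from the median of Pln, r was -0.30 for Sln, -0.27 for Atp2a1, -0.33 for Casq1, -0.29 for Casq2, -0.06 for Atp2a2 and 0.49 for its second probe.

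The same question was put to all probes by a limma fit with 1 mean per group and the level of Pln as a covariate. Of 30366 other probes, 1010 (3.33%) moved with Pln at an adjusted p under 0.01, of which 556 in the same direction. None of the 7 other member probes did, with adjusted p from 0.37 to 0.71. The count of probes depended on single rats: it was 385 without rat 4 and 1529 without rat 3 at 170 kBq, and 671 without rat 2 at 760 kBq. It was 558 with arrays weighted by quality and 554 without the 4700 and 0 kBq arrays.

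The slope on Pln was -1.87 (SE 1.38) for Sln, -0.53 (SE 0.57) for Atp2a1, 0.30 (SE 0.38) for Atp2a2, 0.55 (SE 0.35) for its second probe, -0.66 (SE 0.74) for Casq1 and -0.73 (SE 0.61) for Casq2, in log2 units per log2 unit of Pln. None of these was distinguishable from 0, and with SEs up to 1.38 a small slope was not detectable in 36 rats.

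Several pairs of the other members moved together. With Casq1 as the covariate, 12.1% of all probes were called, and among the member probes Atp2a1 (r = 0.96), Casq2 (r = 0.67) and the main probe of Atp2a2 (r = 0.66) were called in the same direction. With Casq2 as the covariate, 28.4% of all probes were called, and Sln (r = 0.79) was among them with the main probe of Atp2a2 (r = 0.77). Sln with Atp2a1 (r = 0.50), Sln with Casq1 (r = 0.47) and Atp2a1 with the main probe of Atp2a2 (r = 0.55) did not pass, with adjusted p from 0.013 to 0.039 in limma's fits. The pair of Atp2a1 and Casq1 rested in part on rat 3 at 760 kBq, yet without the 2 rats farthest from the median r was still 0.93. Permutation p within groups was 1e-05 for Atp2a1 with Casq1 and for Atp2a2 with Casq2, the smallest that 100000 permutations can give, and 2e-05 for Sln with Casq2.

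The second probe of Atp2a2 ran the other way. Its r was -0.55 with Sln, -0.52 with Casq1, -0.45 with Casq2, -0.44 with Atp2a1 and -0.41 with the main probe of the same gene. With it as the covariate 39.2% of all probes were called, among them Sln and both Casq1 probes. It followed the mean of 12 thyroid follicular markers (r = 0.78), which the main probe of Atp2a2 ran against (r = -0.47).

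Levels of these members were set beside the marker lists of the tissues in the piece. The mean of the 11 fast muscle markers correlated over the same 36 rats with r = 0.99 for Casq1, 0.98 for Atp2a1, 0.70 for Casq2, 0.66 for Atp2a2 and 0.52 for Sln. For Pln it was -0.18. The mean of the 9 slow muscle markers gave 0.78 for Atp2a2, 0.66 for Casq2 and 0.04 for Pln, and that of 9 smooth muscle markers gave 0.68 for Sln and 0.06 for Pln. For Sln the highest r was with the mean of 4 cartilage markers (0.86), and it was -0.76 with the C cell and -0.72 with the follicular list. Casq2 had 0.66 with cartilage, -0.72 with C cells and -0.68 with follicular cells. Well above background on all arrays were 1 of the 4 cartilage, 1 of the 5 C cell and 7 of the 12 follicular markers. The mean of 9 cardiac markers gave -0.10 for Pln, and 4 of the 9 were well above background on all arrays. Of these markers, Actc1 reached 7.45 and Myh6, which is also found in some skeletal fibres, 6.17 in single rats, while Mybpc3 stood no higher than -6.98. These r values share the arrays and their scaling and are given as a description.

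**Figure D4:**
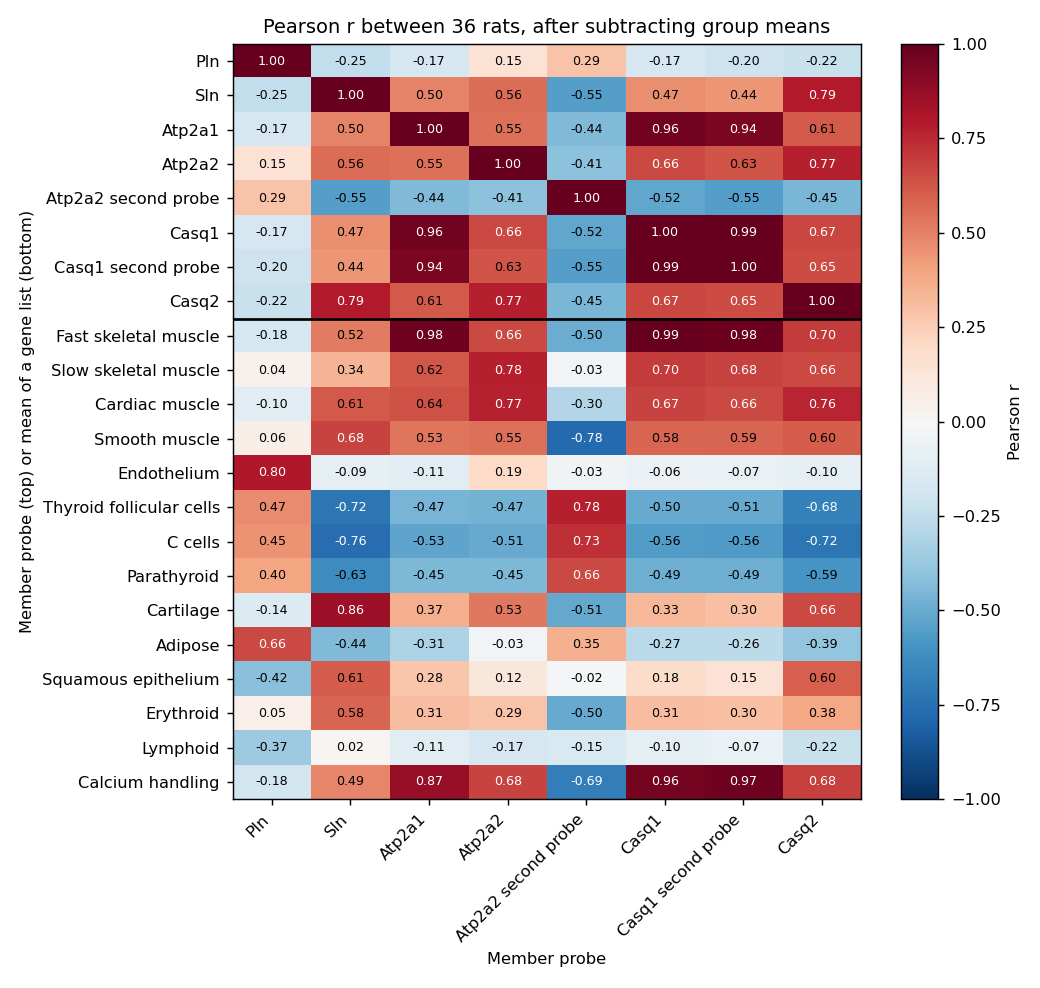
Pearson r over 36 rats after subtracting group means, between the 8 member probes (columns) and the same probes or the mean of each of 14 gene lists (rows). The Atp2a1 and Casq1 columns are red along the muscle rows, whereas the Pln column reaches 0.80 in the endothelium row and stays between -0.25 and 0.29 for the other members.

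A list of 39 further calcium handling genes was taken beside the members, of which 36 had a probe. None was called in any of the 8 comparisons, and none moved with Pln (0 of 36, with 3.33% of all probes called). With Casq1 as the covariate, 17 moved in the same direction and 1 in the opposite one, against 12.1% of all probes in either direction. Over the list the median r was -0.18 with Pln (0.03 over all genes) and 0.54 with Casq1 (0.05 over all genes).

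The 17 genes that moved with Casq1 had r from 0.76 to 0.995 with it. Cacna1s, the voltage sensor of the muscle membrane, had r = 0.995 with Casq1 and -0.19 with Pln. Trdn, which anchors calsequestrin to the release channel, had 0.99 and -0.20, and Hrc, a calcium-binding protein of the store, had 0.96 and -0.22. Pvalb, a calcium buffer of fast fibres, had 0.98 and -0.12, and Jph2, which joins store and surface membrane, had 0.92 and -0.22. Genes found in many cell types were also among the 17, such as Orai1, a calcium channel of the surface membrane (r = 0.76 with Casq1), and Tmem38b, a cation channel of the store (0.79).

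Itpr2, an inositol trisphosphate receptor, was the gene that moved against Casq1 (r = -0.59, adjusted p = 0.0071 in limma's fit). The highest r with Pln in the list were those of Itpr1, its relative (0.52), Cacna1c, the calcium channel of heart and smooth muscle (0.50), and S100a1, a calcium-binding regulator of the pump (0.41). The lowest were those of Ppp1ca, a catalytic subunit of the phosphatase that acts on phospholamban (-0.50), Camk2d, a kinase that phosphorylates it (-0.49), and Slc8a1, the sodium-calcium exchanger (-0.42). For Itpr1 the adjusted p was 0.039, for Ppp1ca 0.11 and for Camk2d 0.068, which did not pass.

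**Figure D5:**
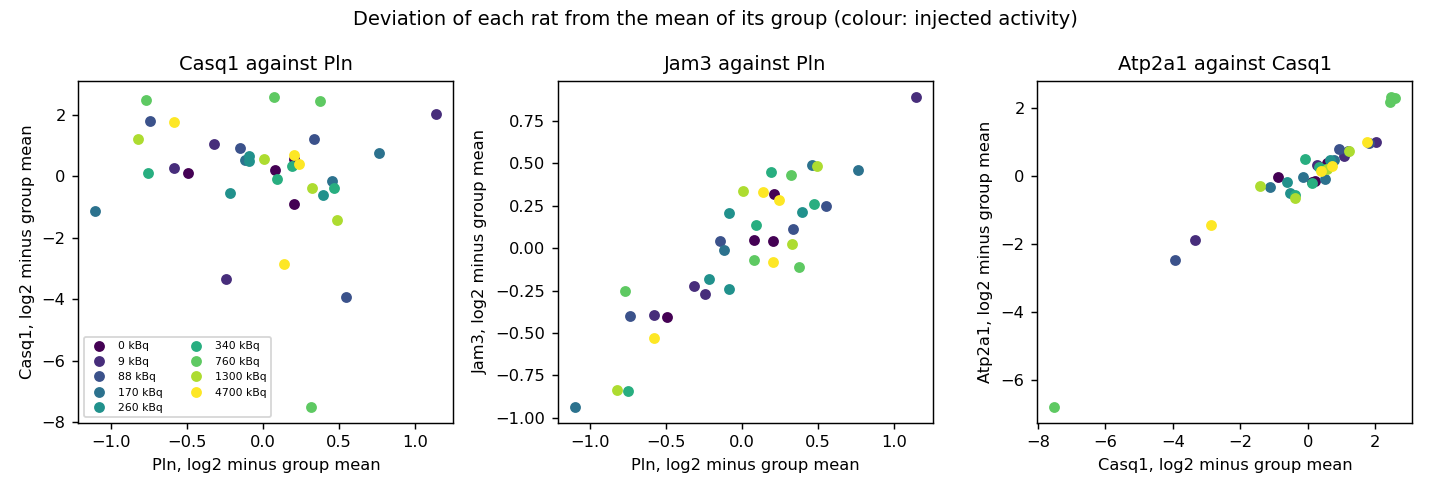
Deviation of each of the 36 rats from the mean of its group, in log2 units on both axes, for Casq1 against Pln, Jam3 against Pln and Atp2a1 against Casq1, with colour giving the injected activity. The slope of Casq1 on Pln is not distinguishable from 0 (r = -0.17). Jam3, picked for the highest r with Pln (0.90), and Atp2a1 with Casq1 (r = 0.96) lie along lines.

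The genes most like Pln between rats were found by ranking 15153 other genes by Pearson's r over the 36 deviations from the group means. The 10 with the highest r were Jam3 (0.90), Disp1 (0.88), Nrp1 (0.86), Pcdh17 (0.85), Fahd1 (0.85), Emcn (0.85), Ptprr (0.83), Npr1 (0.83), Septin4 (0.83) and Cma1 (0.83). Jam3 encodes a junctional adhesion molecule, Nrp1 a co-receptor of vascular growth factors, Emcn an endothelial sialomucin and Npr1 the receptor of atrial natriuretic peptide. All 10 moved with Pln at an adjusted p under 0.01 in limma's fit, which follows from their choice. When the 4700 and 0 kBq arrays were left out, r was between 0.84 and 0.90. The rats kept were among those used for the choice, so this range is no separate check.

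The 4 endothelial markers had a median r of 0.60 with Pln. Kdr, the main receptor of vascular endothelial growth factor, had r = 0.76 with Pln and an adjusted p of 0.00042 in limma's fit, and Pecam1 had r = 0.62 and an adjusted p of 0.012, above the threshold. Tek had r = 0.58 and Cdh5 0.06. Of 4 adipose markers, 2 moved with Pln at an adjusted p under 0.01, against 3.33% of all probes: Adipoq, the adipokine adiponectin (r = 0.66), and Cidec, a lipid droplet protein (r = 0.67). The mean of the adipose list had r = 0.66 with Pln, and that of the endothelial list 0.80. In 4 other lists 1 gene moved with Pln, 1 of 4 for endothelium (Kdr), 1 of 4 for the erythroid list (Slc4a1, the red cell anion exchanger, r = 0.66), 1 of 9 for smooth muscle (Mylk, a myosin light chain kinase, r = 0.66) and 1 of 9 for cardiac muscle (Tnni3, the cardiac troponin I, r = 0.62). No gene of the fast muscle, slow muscle, follicular, C cell, parathyroid, cartilage, squamous or lymphoid lists did. Among these, the list mean had r = 0.47 with Pln for follicular cells, 0.45 for C cells and 0.40 for parathyroid. It was 0.04 for slow muscle, -0.14 for cartilage, -0.18 for fast muscle, -0.37 for lymphoid and -0.42 for squamous markers. Tshr of the follicular list had r = 0.61 and an adjusted p of 0.011 in limma's fit, above the threshold. The other erythroid markers had r of -0.09 (Alas2), -0.11 (Epb42) and -0.33 (Rhag).

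At the other end, Espl1 (-0.86), Cenpn (-0.82) and Cdc20 (-0.82), which act in the separation of chromosomes, had among the lowest r with Pln. Leprotl1 (-0.84) and Fbxo28 (-0.83) were also among the 10 lowest. These were picked for their values and are a description.

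The 10 genes most like Pln between rats did not share its level at 4700 kBq. Their log2 ratios to the controls there were between -0.23 for Fahd1 and 0.63 for Npr1, with a median of 0.03, against 2.26 for Pln. Jam3, the nearest, was at 0.02 and Emcn at 0.04. Slc4a1, by contrast, was 3.82 higher (SE 0.68), and the endothelial markers had a median of 0.11. These are values of the contrast used to select Pln, with no test.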

How the data were processed

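Total RNA of 36 thyroid samples was read on 1-colour Agilent arrays, 1 per rat. The authors deposited the scanner output of each array, made with Feature Extraction 10.7.3.1, whose processed signal is a background-subtracted intensity not normalized between arrays, and a matrix of intensities that they had quantile normalized. Spots that were controls or had an outlier mark were dropped. Log2 intensities were then expressed relative to the array's 75th percentile and averaged over the spots of a probe, giving 30367 probes. Symbols were taken through the probe accessions from RefSeq, which named 17998 probes. Subtracting 1 percentile leaves intensity-dependent differences between arrays in place.

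Groups were taken from the sample labels. A model with 1 mean per group was fitted with limma 3.58.1 in R 4.3.3, with Benjamini-Hochberg adjustment over all probes. Calls required an adjusted p under 0.01 with at least a 1.5-fold change, the thresholds of the study's methods. Co-movement was tested by adding a gene's level as a covariate, and correlations by 100000 permutations within groups. Exact tests and drawings used Python 3.11.15, numpy 2.4.6, scipy 1.17.1, pandas 2.3.3 and matplotlib 3.10.9. The fits were run on simulated data with independent noise for each probe. That does not check them where many probes vary together, as in these arrays.

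Named genes are the members, the 10 genes with the highest r with Pln, the genes of the calcium list with the 3 highest and the 3 lowest r, and markers of the lists. Other genes, including those with the lowest r with Pln over all genes and those that followed Casq1, were chosen after their values were seen. The members and lists were chosen with earlier results of these data known. The labels number the rats of each group, but the rats are not said to be paired. Alternatives were quantile normalization, median centring, normexp with an offset of 50 on median signals, the authors' matrix, a filter on dim probes that kept 21544, slide or rat number as a block, array weights, fits of 2 groups only, muscle markers as a covariate, an adjusted p under 0.05, and each rat left out.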

Additional observations from a re-analysis of the deposited data

Results flagged for a closer look

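A rat far from the other 3 of its group was looked for in 63 groups of 4 values, of which chance would set apart about 1 in 20, and 9 were found. Pln in rat 3 at 4700 kBq read 0.19, while the others read 0.91 to 1.01. Sln read 2.05 in rat 2 at 9 kBq (others 6.16 to 6.30) and 0.40 in rat 4 at 340 kBq (others 5.83 to 6.81). Atp2a1 read 3.51 in rat 3 at 88 kBq (others 6.74 to 6.96) and -2.22 in rat 3 at 760 kBq (others 6.78 to 6.93). In the same 2 rats Casq1 read 1.08 (others 5.91 to 6.82) and -3.85 (others 6.11 to 6.26). Casq2 read -4.16 in rat 2 at 9 kBq (others 0.33 to 0.53) and -4.76 in rat 2 at 4700 kBq (others -2.15 to -1.64). The mean of the fast muscle markers was 2.59 in rat 2 at 9 kBq, 1.15 in rat 3 at 88 kBq, -3.79 in rat 3 at 760 kBq and 2.90 in rat 2 at 4700 kBq, the 4 lowest of the 36 rats.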

How the results depend on the processing

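No member was called in any of the 7 lower groups under any alternative. The number of all probes called differed between alternatives. With array weights, 1692 of the 30367 probes were called up and 661 down at 9 kBq, and 32 up and 5 down at 88 kBq. Quantile normalization called 1 up and 3 down at 9 kBq, and the main setting 0. At 4700 kBq 1 member, Pln, was called with array weights (log2 ratio 2.41), where 25 of the 30367 probes were called up and 1 down. At an adjusted p under 0.05 it was 1 member, with 6 of all probes called up and 0 down, and 0 members otherwise. Pln was selected on this contrast, so these calls are a description and carry no test. Of the 56 log2 ratios of the members, 37 took the other sign under at least 1 alternative. The sign changed in 108 of 1008 alternative values. Of these, 106 belonged to ratios within 1 SE of 0, where a sign was not counted as a direction. The other 2 came from leaving out rat 3 at 760 kBq, and over the rats left out the ratio ranged from -2.97 to 0.083 for Atp2a1 and from -3.27 to 0.098 for Casq1. The number of probes that moved with Pln was 558 with array weights, 554 without the 4700 and 0 kBq arrays and 2952 at an adjusted p under 0.05, and 385 to 1529 with each rat left out. The r of Pln with Atp2a2 was -0.023 to 0.22 with each rat left out, and its slope on Pln was -0.10 with array weights. Of the differences between the change of Pln and that of another member, 2 reached the smallest exact p under quantile normalization and 2 in the authors' matrix (Atp2a1 at 260 and 1300 kBq in both), against 0. The pair of Sln and Atp2a2 was no longer called under quantile normalization and in the authors' matrix, nor that of Atp2a1 and Casq2, which normexp lost as well. The causes were not tested. With a replicate block on the rat numbers the log2 ratio of Pln at 4700 kBq was 2.26, and 859 probes moved with Pln. Rats of the same number did not deviate together (mean r -0.02), and 8 of 36 correlated best with their own number. The numbers were not used as pairs in the main fits, although these values cannot exclude a pairing. All member probes lay well above background on all arrays, and their SD within groups, from 0.56 for Pln to 4.24 for Sln, differed between members at the same number of rats.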
